A study of Mus musculus with 18 samples.

Results

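Spinal cords of SMA mouse pups were compared with control cords at P2, postnatal day 2, across the genes that were clearly expressed there. Genes were kept where the locus carried 1 gene symbol, the level reached 5 FPKM (sequenced fragments per kilobase, corrected for depth) in at least 1 of the 2 groups, and the estimate had an OK status in both. This gave 8625 gene loci out of 58570, with 8535 different symbols, and 7730 of them were protein-coding. Of these loci, 7855 reached 5 FPKM in both groups, 441 in the SMA group alone and 329 in the control group alone, so a gene that passed through 1 group was bound to lean towards it. Closest to this limit were Casp8ap2 and Eya3, just outside with at most 4.9977 and 4.9998 FPKM, and Cnpy4 and Fmnl1, just inside with 5.0006 and 5.001 FPKM.

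The SMA group held homozygous SMNΔ7 pups and the control group heterozygous pups of the same line, both at P2, with 3 labelled libraries each, made from total RNA of whole spinal cord after removal of ribosomal RNA. In this line, as background, homozygotes lack the mouse gene Smn1, heterozygotes keep a single copy, and human SMN transgenes supply a low level of SMN protein. The sex of the pups, their litters and any pooling were not given in the sources used here. The deposited tables hold 1 combined value per gene and group with a model interval, so values of single libraries were not analysed here. The same 2 genotypes at P6 and P10 were used only to place the P2 values.

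Spinal muscular atrophy is a disease of motor neurons caused by too little SMN, a protein that helps to assemble the particles that splice RNA. The days after birth are also the time at which oligodendrocytes of the mouse spinal cord leave the precursor state, wrap axons and load their membrane with lipids and a small set of abundant myelin proteins. Astrocytes mature in the same days, and neurons replace juvenile forms of receptors and channels with adult forms.

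Smn1 itself, too low to be a member, stood at 2.70 FPKM in control cords at P2, or 25.6 estimated fragments, and at 0.0210 FPKM in SMA cords, or 0.202 fragments. It was listed at 0 in SMA cords at P6, but at 2.82 FPKM in the group labelled SMA at P10 against 3.54 in control cords at P10. The genotype in the P2 labels therefore matches the Smn1 level, whereas that of the group labelled SMA at P10 goes against it. Values of that group are given below with this in mind. Smn1 does not bear on age, and whether the age labels hold, that of the SMA group at P2 included, was not tested. The tissue label matched its markers. Depth was close, with 6881671 estimated fragments in control and 7167763 in SMA cords at P2. The summed level of 14 forebrain and midbrain markers was 0.579 FPKM in control and 0.734 FPKM in SMA cords, with Otx1, Otx2, Lhx8, Emx2 and Eomes at 0 in both, while the Hox genes of hindbrain and cord summed to 158 and 139.7 FPKM. The 4 measured genes of the Y chromosome together stood at 79.2 FPKM in control and 27.1 FPKM in SMA cords at P2, and the part of sex in the results below was not tested.

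The median log2 difference, log2((SMA + 1)/(control + 1)) of the FPKM values, was 0.02 over the 8625 members, with quartiles at -0.11 and 0.16. Above 0 were 4611 members (53.5%) and below 0 were 4014 (46.5%). Large differences were uneven between the directions. At least 0.5 higher in SMA cords were 477 members (5.53%), and at least 0.5 lower were 136 (1.58%). At a difference of 1 or more, 148 members (1.72%) were higher and 61 (0.707%) lower. Of these, 95 of the higher and 5 of the lower were protein-coding, and the lower ones were 4 genes of the Y chromosome and a predicted gene.

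The log ratio of each locus was set against its standard error, taken from the authors' interval, in a z test (both sides, normal approximation, Benjamini-Hochberg adjustment over 19114 loci). It called 24 loci (0.126%) at an adjusted p under 0.05. Higher in SMA cords were 19 (0.0994%) and lower were 5 (0.0262%). Of the members, 17 were called. The 8 protein-coding members among them were all higher in SMA cords, and as background all are known from myelinating oligodendrocytes. No protein-coding member that was lower in SMA cords was called, and 2 of these had an unadjusted p under 0.05, against 71 of those that were higher. The intervals are wide, at a median of 55.9% of the FPKM on each side in control and 56.5% in SMA cords, so the test could show only large differences. The z values of all tested loci had a robust standard deviation of 0.27, narrower than a standard normal. The p-values thus tended to be too large, and a gene without a call is not shown to be unchanged. Nothing in the labels says that the libraries of a group came from separate animals, so p-values measure only the spread that the authors' model found between these libraries. An exact test would need values of single libraries.

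**Figure D1:**
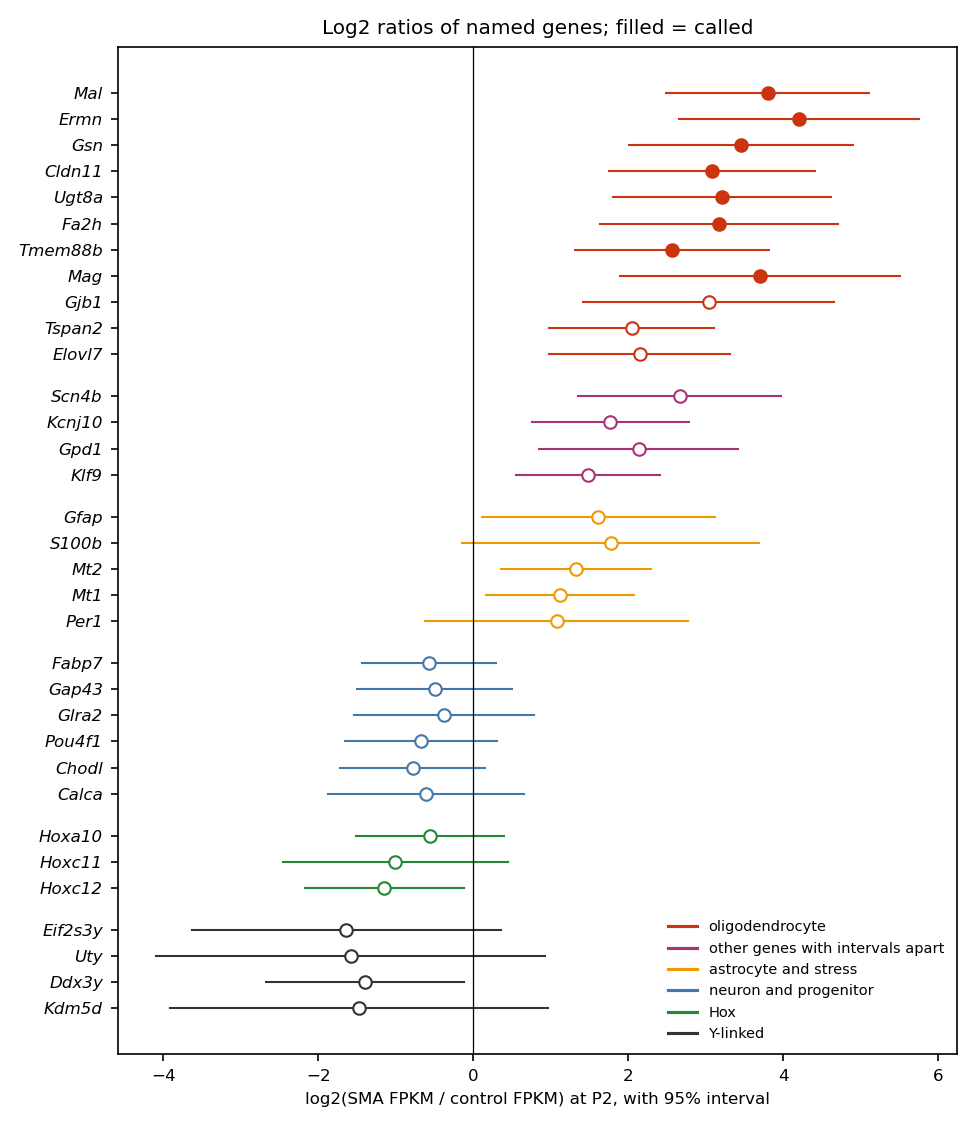
Log2 ratio of SMA to control FPKM at P2 (horizontal axis) for named genes, grouped by colour, with the 95% interval from the authors' bounds. Filled points passed the z test: all 8 lie to the right, and Ermn, at 4.21, Mal, at 3.81, and Gsn, at 3.46, have their whole intervals above 2.

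Mal, a proteolipid of compact myelin (GRCm38, chromosome 2, 127633226 to 127656695, minus strand), stood at 5.62 FPKM in control cords (interval 2.66 to 8.58) and 78.6 FPKM in SMA cords (20.5 to 137). Its log2 ratio was 3.81 ± 0.67 (SE), with an adjusted p of 2.86e-05 in the z test. Ermn, which encodes the myelin cytoskeletal protein ermin, stood at 0.438 FPKM (0.0489 to 0.827) in control and 8.09 FPKM (3.23 to 12.9) in SMA cords, with a log2 ratio of 4.21 ± 0.79 and an adjusted p of 0.000171. For both genes the SMA group lay far above the control group and the intervals did not touch. Gsn, the actin-severing protein gelsolin, rose from 7.56 to 83.1 FPKM with a log2 ratio of 3.46 ± 0.74 (adjusted p of 0.00333), although its intervals just met. Cldn11, the claudin that seals the layers of central myelin, rose from 15.2 to 129 FPKM (3.08 ± 0.68, adjusted p of 0.00584). The SMA group was again the high one, and the interval of Cldn11 was clear of that of the control group.

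The remaining 4 called genes include a pair of enzymes that make the galactolipids of myelin. Ugt8a, which adds galactose to ceramide, rose from 10.8 FPKM (5.09 to 16.6) in control to 100.4 FPKM (17.8 to 183) in SMA cords, a log2 ratio of 3.21 ± 0.72 with an adjusted p of 0.00871. Fa2h, which hydroxylates the fatty acid of these lipids, rose from 2.04 to 18.3 FPKM (3.17 ± 0.78, adjusted p of 0.0464). Tmem88b, a membrane protein gene seen in maturing oligodendrocytes, rose from 1.97 to 11.6 FPKM (2.57 ± 0.64, adjusted p of 0.0483). Mag, the adhesion molecule that faces the axon, rose from 11.1 to 145 FPKM (3.71 ± 0.92, adjusted p of 0.0483), and its SMA interval of 0 to 308 FPKM covered that of the control group. Fa2h, Tmem88b and Mag were no longer called without a minimum FPKM (adjusted p of 0.0888, 0.0923 and 0.0923) or with protein-coding and long noncoding loci alone (0.0854 each). Among the 19114 tested loci, which exclude those at 0 in a group, intervals lay apart for 44 (0.23%), 34 of them higher in SMA cords (0.178%) and 10 lower (0.0523%). Over all members, loci at 0 included, they lay apart for 42 that were higher and 43 that were lower, and 69 of these were small RNAs. The 13 protein-coding members with intervals apart were all higher. These were 6 of the called genes, without Gsn and Mag, and 7 more that the z test did not call: Gjb1, Tspan2, Elovl7, Scn4b, Kcnj10, Gpd1 and Klf9.

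All 8 called protein-coding genes moved the same way. Their promoters were set beside motifs of Sox10 and Myrf, factors that switch on myelin genes. Shown are 3 of them: Mag, the only gene with a match, and Mal and Ermn, with the lowest adjusted p. The 250 bases before the annotated start were available for 7 of the 8, all but Fa2h, from RefSeq on build GRCm38.p6. On either strand, the Sox motif ACAAAG, whose reverse complement is CTTTGT, occurred in 1 of the 7, against 16.5% of 32851 promoters of this length, and the Myrf motif CTGGCAC, with GTGCCAG as reverse complement, in 1 of 7, against 4.19%. Both matches were in Mag, at 126 to 121 and 68 to 62 bases before the start, and are in capitals below, beside the promoters of Mal and Ermn, which held neither. The windows are chr7:30914864-30915113, chr2:127656696-127656945 and chr2:58052865-58053114, all on the minus strand and written 5′ to 3′.
Mag: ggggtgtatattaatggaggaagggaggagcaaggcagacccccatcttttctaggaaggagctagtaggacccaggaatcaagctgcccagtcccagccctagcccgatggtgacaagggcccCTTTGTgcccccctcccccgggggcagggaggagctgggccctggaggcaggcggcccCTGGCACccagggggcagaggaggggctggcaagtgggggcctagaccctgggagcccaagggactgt
Mal: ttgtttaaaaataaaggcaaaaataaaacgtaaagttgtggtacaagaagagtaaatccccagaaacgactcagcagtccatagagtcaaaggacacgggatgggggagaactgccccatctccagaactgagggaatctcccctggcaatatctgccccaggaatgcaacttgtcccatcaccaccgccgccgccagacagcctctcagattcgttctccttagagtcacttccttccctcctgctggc
Ermn: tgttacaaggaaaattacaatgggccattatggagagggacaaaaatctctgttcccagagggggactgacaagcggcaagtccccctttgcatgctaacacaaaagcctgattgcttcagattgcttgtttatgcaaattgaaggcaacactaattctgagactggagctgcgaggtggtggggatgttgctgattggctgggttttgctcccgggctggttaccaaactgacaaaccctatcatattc

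All 18 members of a list of late myelin genes were above the control level, at a median log2 difference of 2.12, where 53.5% of all members were above it at a median of 0.02. In 14 of the 18 the difference was 1 or more, and 4 were called. Members below 5 FPKM in control cords, such as Ermn, Gjb1 and Mog, passed through the SMA group alone and had to be higher. Counts in the lists below share this limit, in either direction. Mbp, myelin basic protein and the most abundant of the list, stood at 149.6 FPKM (80.5 to 219) in control and 1840.5 FPKM in SMA cords, where the interval ran from 0 to 6286 FPKM. Mog, on the outer face of the sheath, stood at 2.07 and 51.4 FPKM. Neither Mbp nor Mog was called (adjusted p of 0.999966 in the z test), and the SMA interval of each reached 0.

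The interval of the SMA group was wider for such genes than for others. Its distance to the upper bound was 87.2% of the FPKM at the median of the late myelin list, against 56.8% in control cords, and it was 242% for Mbp. The authors' interval comes from a model of 3 libraries that cannot be looked at singly here, so whether the 3 SMA libraries were alike in myelin genes was not tested. Less abundant myelin genes were also higher, with Cnp at 33.8 and 183 FPKM and Tspan2 at 12.9 and 53.4 FPKM. Gjb1, the connexin of the sheath, stood at 1.14 and 9.42 FPKM (adjusted p of 0.155). Gpm6b, a membrane protein that neurons and precursors share, differed least, at 124 and 142 FPKM, followed by the junction protein Jam3 at 8.41 and 13.1 FPKM. In whole cord, more cells of a type and more RNA per cell cannot be told apart.

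**Figure D2:**
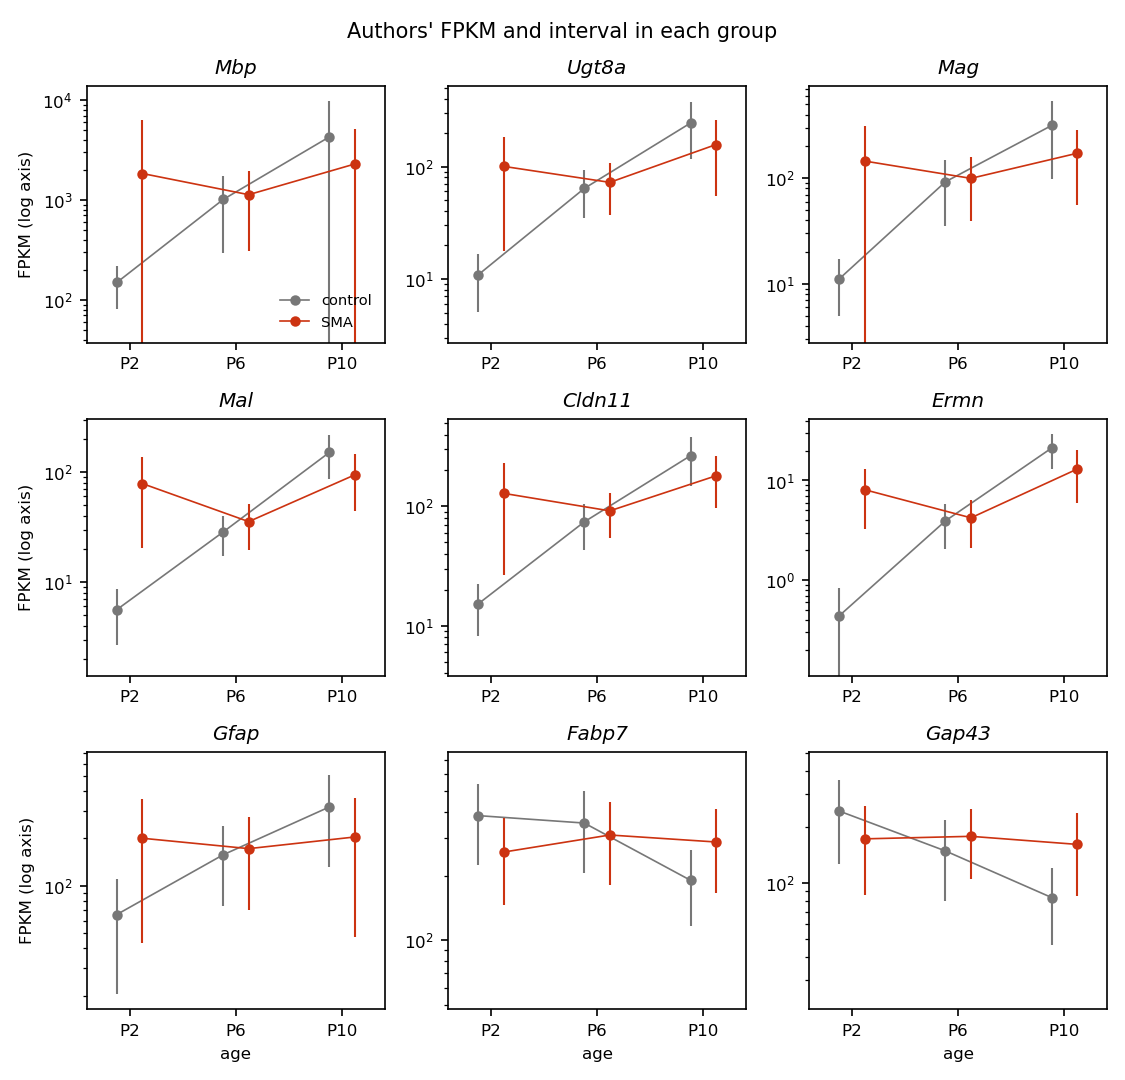
FPKM on a log axis at P2, P6 and P10 for 9 genes in control (grey) and SMA groups (red, the P10 one as labelled), where points are the authors' group values, vertical lines their intervals (cut at the lower edge where they reach 0) and thin lines join the ages of a genotype. In the 6 myelin genes the SMA value at P2 lies above that of control cords at P6 and below that of control cords at P10. Fabp7 and Gap43 are lower in SMA cords at P2.

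Enzymes that build myelin lipids followed, with 14 of 14 members above control, a median of 1.23 and 9 of 14 at 1 or more. Beside the called Ugt8a and Fa2h, Elovl7, which lengthens fatty acids, stood at 2.79 FPKM (1.26 to 4.33) in control and 12.4 FPKM (5.05 to 19.8) in SMA cords, with intervals apart and an adjusted p of 0.18. Enzymes used by many cells differed little, as Fads1 stood at 39.97 and 44.9 FPKM and Fads2 at 49.8 and 56.8 FPKM. Of 20 members of the cholesterol pathway, whose product is the main sterol of myelin, 18 were above control at a median of 0.36, none was called and none reached 1. Hmgcs1, an abundant early enzyme, stood at 131 and 184 FPKM, while Mvk and Nsdhl were level, at 16.7 and 16.04 and at 13.97 and 13.8 FPKM.

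Regulators and enzymes of maturing oligodendrocytes had 24 of 25 members above control, a median of 1.21, 15 members at 1 or more and 2 called, Gsn and Tmem88b. Myrf, the transcription factor that switches on myelin genes, stood at 2.59 FPKM (1.26 to 3.92) in control and 11.5 FPKM (3.67 to 19.3) in SMA cords (adjusted p of 0.316). Adamts4, a protease of mature oligodendrocytes, stood at 1.03 and 10.1 FPKM, and the abundant deacetylase Sirt2 at 24.3 and 67.8 FPKM. Efnb3 and Zfp488 were level, at 28.6 and 29.1 and at 28.2 and 27.8 FPKM. Markers of the newly committed stage were high as well, since Enpp6 stood at 3.01 and 13.9 FPKM and Bcas1 at 12.3 and 44.2 FPKM. Outside these lists, Pdlim2, whose protein binds the actin cytoskeleton, stood at 1.12 and 13.2 FPKM.

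Precursor genes differed less. Of 11 members, 10 were above control, the median was 0.55 and only Gpr17, a receptor of cells about to differentiate, passed 1, at 14.01 and 31.4 FPKM. C1ql1 stood at 5.20 and 9.49 FPKM and Sox10 at 6.09 and 10.5 FPKM. Ptprz1 and Cacng4, which precursors share with other glia and neurons, were near level, at 61.9 and 60.1 and at 16.1 and 17.8 FPKM, and the kinase Fyn stood at 52.8 and 77.7 FPKM. The order of the medians from late myelin to precursor is a description, with no test between the lists.

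Of the list of Schwann cell and peripheral myelin genes, 7 of 7 members were above control at a median of 0.70, with 4 at 0.5 or more and 3 at 1 or more, and the list shares Mbp, Sox10 and S100b with central glia. Pmp22, a protein of compact peripheral myelin, stood at 23.2 and 29.7 FPKM, and Prx, below the cutoff, at 2.57 and 3.34 FPKM. The log2 difference of Pmp22 was 0.34, near the lowest of the list, and that of Mbp 3.61. The list summed to 348 FPKM in control and 3141 FPKM in SMA cords, Mbp included, and its defining genes Ncmap, Egr2 and Dhh were below 2 FPKM in both groups. The part of attached nerve roots in the results was not tested.

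**Figure D3:**
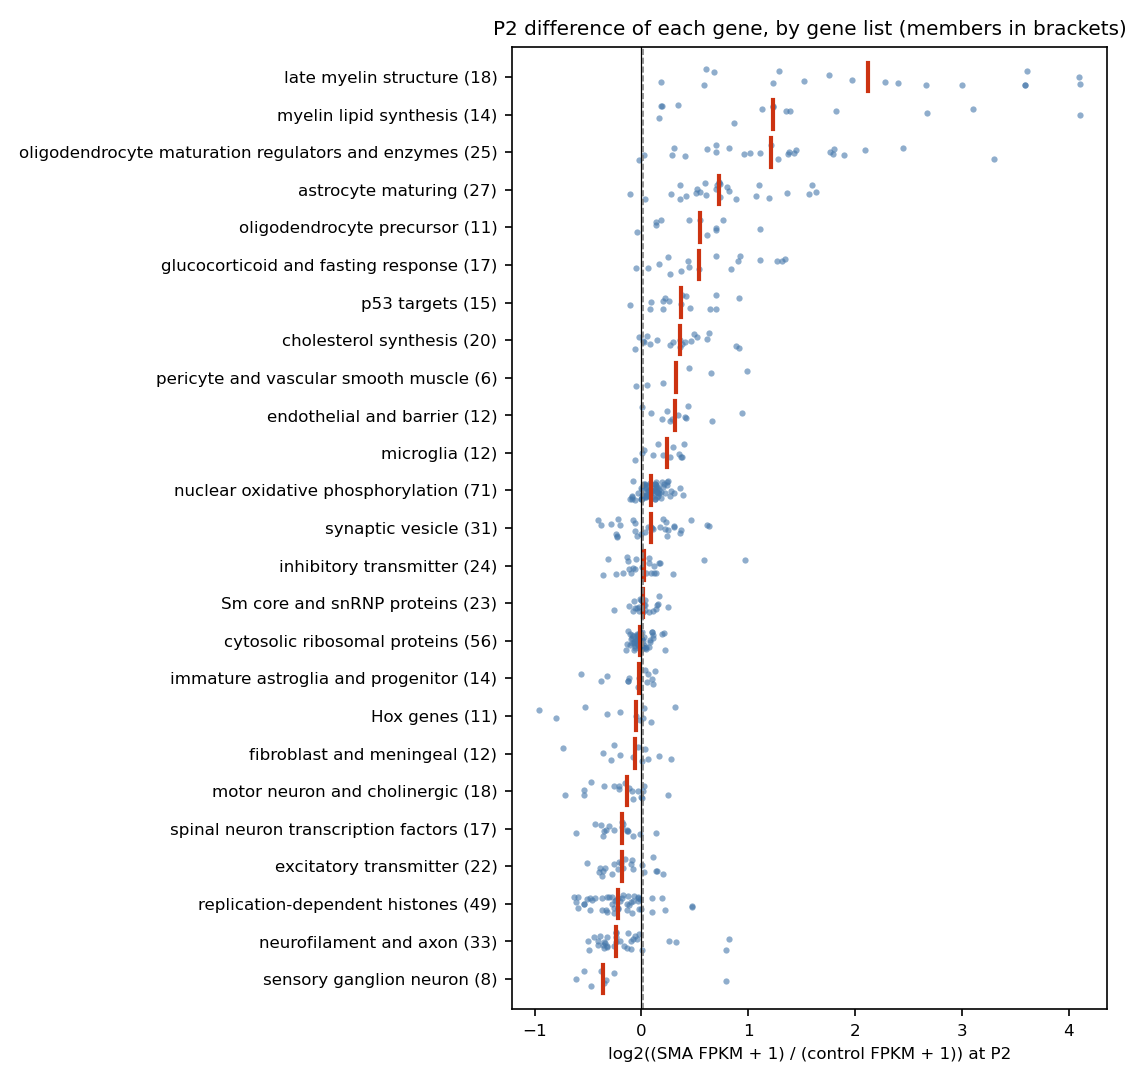
Log2 difference at P2 of every member (blue points) in 25 gene lists, with the list's median (red bar), ordered by median; the dashed line is the median of all 8625 members. The 3 lists of maturing oligodendrocytes lie furthest right, at 2.12, 1.23 and 1.21, and the axon and sensory neuron lists furthest left, at -0.24 and -0.36.

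Genes of maturing astrocytes formed the next group. Of 27 members, 26 were above control at a median of 0.73, 7 were at 1 or more, and none was called. Gfap, the filament protein that mature astrocytes are stained for, stood at 65.6 FPKM (20.6 to 111) in control and 201 FPKM (43.2 to 358) in SMA cords. S100b, a calcium-binding protein shared with oligodendrocytes, stood at 6.44 and 22.1 FPKM, and the glutamate transporter Slc1a2, which appears with maturity, at 57.2 and 133 FPKM. The most abundant members differed less, with the lipid carrier Apoe at 431 and 651 FPKM and the protease inhibitor Cst3 at 292 and 486 FPKM. Slc1a3, the glutamate transporter that is already strong before birth, was level at 61.3 and 62.8 FPKM, as was Id3 at 24.1 and 22.3 FPKM. Kcnj10, the potassium channel of astrocytes and oligodendrocytes, stood at 6.94 FPKM (4.08 to 9.79) and 23.7 FPKM (10.1 to 37.3), with intervals apart and an adjusted p of 0.325.

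Genes of immature glia and progenitors did not share this. Of 14 members, 6 were above control and the median was -0.02, a share and a median close to those of all members. Fabp7, the lipid-binding protein of radial glia, stood lowest against control, at 383 FPKM (226 to 540) and 259 FPKM (146 to 371). Dbi and Sox2 were slightly high, at 250.05 and 270.2 and at 19.5 and 21.3 FPKM. Every interval of these 3 genes overlapped between the groups.

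Vessel and immune genes moved in smaller steps. All 12 members of the endothelial list were above control at a median of 0.31. The greatest difference was that of Mfsd2a, the lipid transporter of the blood-brain barrier, at 9.21 and 18.6 FPKM, then Ly6c1 at 4.89 and 8.29 FPKM, while Cxcl12 was level at 5.48 FPKM in both. The abundant Bsg and Cldn5 stood at 135 and 155 and at 18.9 and 23.0 FPKM. Pericyte genes had 5 of 6 members above control (median 0.32), with Mcam at 5.62 and 12.1 FPKM and Rgs5 at 12.03 and 19.5 FPKM. Microglial genes had 11 of 12 above control at a median of 0.24 and none at 0.5, with C1qa at 9.01 and 12.2 FPKM. Fibroblast and meningeal genes had 5 of 12 above control and a median of -0.06. The lowest of them was Ptgds, prostaglandin D synthase of meninges and glia, at 72.6 FPKM (37.5 to 108) and 43.3 FPKM (25.1 to 61.5). None of these vessel, immune and meningeal genes was called.

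Of 33 members of the axon and cytoskeleton list, 5 were above control and the median was -0.24. The lowest were the growth cone protein Gap43, at 244 FPKM (127 to 361) in control and 173 FPKM (86.5 to 259) in SMA cords, and Dpysl5, at 43.7 and 30.7 FPKM. The highest were the heavy neurofilament Nefh, at 18.3 and 32.4 FPKM and the surface protein Thy1, at 21.6 and 38.9 FPKM. The very abundant Basp1 and Stmn3 stood at 349 and 296 and at 303 and 283 FPKM. No member was called and all of these intervals overlapped.

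Tubulins had 5 of 10 members above control at a median of -0.07, which turned to 0.01 with genes of 1 FPKM or more. Tubb4a, the form used by oligodendrocytes and mature neurons, stood at 34.9 and 84.7 FPKM, and Tuba4a at 22.8 and 33.2 FPKM. Tubb3, the form of young neurons, stood at 263 and 209 FPKM, Tubb5 at 388 and 320.2 FPKM, and Tuba1a, the most abundant, at 1040.3 and 874 FPKM. None was called.

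Transmitter receptors and channels gave small differences that ran in opposite directions within families. The adult glycine receptor subunit Glra1 stood at 11.5 FPKM in control and 17.7 FPKM in SMA cords, and the juvenile subunit Glra2 at 31.2 and 24.1 FPKM. Among sodium channels, the adult form Scn1a stood at 21.9 and 27.0 FPKM and the juvenile form Scn3a at 27.0 and 21.9 FPKM, a pair named after its values were seen. Scn4b, an accessory subunit of mature fast-firing neurons, had intervals apart, at 0.816 FPKM (0.287 to 1.35) and 5.18 FPKM (1.87 to 8.49), and a log2 ratio of 2.67 ± 0.67 just short of the call (adjusted p of 0.0522). Sodium and calcium channels as a list had 11 of 27 members above control (median -0.17), potassium channels 16 of 32 (-0.01) and inhibitory transmitter genes 13 of 24 (0.02). The greatest difference in the inhibitory list was that of the chloride importer Slc12a2, which glia also express, at 12.1 and 24.5 FPKM.

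Excitatory transmitter genes had 6 of 22 members above control at a median of -0.18. Grm3 and Grm5, metabotropic glutamate receptors strong in the young cord, stood at 28.6 and 19.8 and at 77.3 and 58.3 FPKM, and the vesicular transporter Slc17a6 at 62.9 and 55.6 FPKM. Grik5 and Grin2a were a little high, at 16.5 and 19.1 and at 11.03 and 12.3 FPKM. Synaptic vesicle genes had 18 of 31 above control (median 0.09), with Vamp1 at 45.0 and 70.4 FPKM, Syt2 at 24.7 and 38.3 FPKM, Syt4 at 56.3 and 43.0 FPKM and Stx1a at 18.6 and 13.8 FPKM. Neuropeptide genes had 6 of 17 above control (median -0.05), with Tac1, the substance P precursor, at 31.2 and 23.8 FPKM. Of the 17 transcription factors of spinal neurons that were members, 1 was above control and the median was -0.18. That was Pax8, at 6.52 and 7.25 FPKM, which in estimated fragments was below control (-0.22 on the log2 scale), and the lowest were Pou4f1, at 12.3 and 7.68 FPKM, and Zic1, at 21.3 and 15.5 FPKM. No gene of these lists was called.

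Motor neuron and cholinergic genes had 4 of 18 members above control and a median of -0.14, with no call. Chodl, a marker of fast motor neurons, was lowest, at 14.2 FPKM (8.24 to 20.1) in control and 8.25 FPKM (4.14 to 12.3) in SMA cords. It was also lower in SMA cords at P6, at 14.2 and 9.57 FPKM, and in the group labelled SMA at P10, at 13.6 and 9.16 FPKM. Calca, the precursor of CGRP, stood at 9.73 and 6.38 FPKM, and Uts2b at 5.82 and 3.71 FPKM. The vesicular acetylcholine transporter Slc18a3 was level, at 7.32 and 7.46 FPKM, and Prph, a filament of motor and sensory neurons, stood at 27.0 and 21.0 FPKM. The synthetic enzyme Chat was below the cutoff, at 1.31 and 1.57 FPKM. Several of these genes also mark sensory ganglion neurons, a list in which 1 of 8 members, Nefh, was above control and the median was -0.36, while its defining channels Scn10a and Scn11a were below 0.2 FPKM in both groups.

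Genes that work with SMN were near level. Of 8 members of the SMN complex and its partners, 4 were above control (median 0.06). Pls3, plastin 3, reported as a modifier of the disease in people, stood at 7.21 and 11.2 FPKM, Gemin5 at 5.64 and 4.61 FPKM, and Prmt5, which methylates Sm proteins, at 16.8 and 15.0 FPKM. The Sm and snRNP proteins that SMN loads had 13 of 23 members above control, at a median of 0.01 and a range from -0.25 to 0.25. Splicing factors of the hnRNP and SR kinds had 14 of 29 (median -0.01). Subunits of the anaphase-promoting complex, named in the title of the series, and their control genes had 5 of 15 above control (median -0.08), and the activator Fzr1 stood at 12.4 and 10.04 FPKM.

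Hox genes give a cord cell its position along the body axis. Of 11 members, 4 were above control at a median of -0.05, and the 3 that were at least 0.5 lower, Hoxc12, Hoxc11 and Hoxa10, are expressed towards the tail end of the cord. Hoxc12 stood at 7.72 FPKM (3.77 to 11.7) in control and 3.49 FPKM (1.78 to 5.20) in SMA cords, the lowest of the list at a log2 difference of -0.96. Hoxc11 stood at 5.73 and 2.86 FPKM and Hoxa10 at 21.8 and 14.8 FPKM. Hoxc12 and Hoxc11 were below 5 FPKM in SMA cords, so they passed through the control group alone and had to be lower. The other 8 members lay between -0.33 for Hoxc9 and 0.31 for Hoxd8, and the abundant Hoxb8 and Hoxc8 stood at 28.7 and 24.9 and at 19.2 and 20.5 FPKM. In control cords Hoxc12 and Hoxc11 were lower at P6, at 3.23 and 1.90 FPKM, than at P2. None was called.

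The 4 genes of the Y chromosome were the lowest named protein-coding members. Eif2s3y, a translation initiation factor, stood at 33.2 and 10.7 FPKM, Uty at 17.8 and 5.92 FPKM, Ddx3y, an RNA helicase, at 17.9 and 6.82 FPKM, and Kdm5d, a histone demethylase, at 10.3 and 3.71 FPKM. Their log2 differences lay between -1.55 and -1.26, and none was called. At P6 all 4 were higher in SMA cords, with Eif2s3y at 10.98 and 23.7 FPKM. Of 6 red-cell and blood members, 2 were above control, and the globins stood at the bottom, with Hba-a1 at 342 and 218 FPKM and Hbb-bs at 399 and 278 FPKM.

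Hormone and stress response genes were mostly above control. Of 17 members of a glucocorticoid and fasting list, 16 were above control, the median was 0.54, and 4 were at 1 or more. The metallothioneins Mt2 and Mt1, which bind zinc, stood at 57.9 FPKM (31.1 to 84.8) and 146 FPKM (75.2 to 216) and at 71.5 and 156 FPKM. Klf9, a glucocorticoid-inducible factor, had intervals apart, at 3.64 FPKM (1.9604 to 5.31) and 10.2 FPKM (5.59 to 14.8), with an adjusted p of 0.746, and Htra1 stood at 8.06 and 22.0 FPKM. In control cords Klf9 was also higher later, at 5.24 FPKM at P6 and 12.2 FPKM at P10. Fkbp5, the most used marker of glucocorticoid signalling, was level at 4.90 and 5.16 FPKM, as was Acot1 at 16.04 and 15.4 FPKM. At P6 Mt2 was again higher in SMA cords, at 64.7 and 128 FPKM. Glycerol phosphate dehydrogenase Gpd1, which is both hormone-responsive and strong in oligodendrocytes, had intervals apart, at 2.31 FPKM (0.75 to 3.87) and 10.2 FPKM (4.29 to 16.1).

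Targets of p53 had 14 of 15 members above control at a median of 0.37, none at 1 or more and none called. Dcxr stood at 2.58 and 5.72 FPKM, Ddit4 at 11.8 and 19.8 FPKM, Ccng1 at 13.6 and 19.1 FPKM and the abundant Ei24 at 25.8 and 30.2 FPKM, while Plk2 stood at 15.5 and 14.4 FPKM. The cell cycle inhibitor Cdkn1a stood at 7.43 and 9.92 FPKM, with overlapping intervals. Chaperone and unfolded protein genes had 13 of 21 above control (median 0.04), and integrated stress response genes 9 of 16 (median 0.09). Brown fat genes, foreign to the cord, were also higher, with Ucp1 at 3.66 and 7.70 FPKM and Fabp4 at 3.64 and 7.46 FPKM, and that list of 18 genes summed to 25.02 FPKM in control and 40.2 FPKM in SMA cords, with Lep at 0 and Adipoq at 0.136 and 0.288 FPKM. At P6 Ucp1 stood at 1.05 and 8.44 FPKM. The part of attached fat tissue in other genes was not tested.

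Genes of dividing cells were slightly low. Replication-dependent histones had 6 of 49 members above control at a median of -0.22, with Hist1h2bn at 27.0 and 17.05 FPKM, Hist1h2an at 9.54 and 5.96 FPKM and the abundant Hist1h4d at 202 and 173 FPKM, while Hist1h2bc stood at 16.2 and 22.8 FPKM. Near-identical histone copies share reads, so single histone values are uncertain. DNA replication genes had 3 of 11 above control (median -0.12) and mitotic genes 5 of 12 (median -0.07). Housekeeping machinery stayed close to the centre. Cytosolic ribosomal proteins had 21 of 56 above control (median -0.02), with the most abundant, Rplp1, at 583 and 578 FPKM. Nuclear genes of oxidative phosphorylation had 61 of 71 above control, but at a median of only 0.09 and none at 0.5. Proteasome subunits had 25 of 32 (median 0.07) and glycolytic genes 16 of 19 (median 0.22), where the monocarboxylate transporter Slc16a1, which oligodendrocytes use, stood at 12.7 and 23.1 FPKM.

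Noncoding RNAs gave the least certain values. Of 168 small RNA members, 97 differed by 1 or more and 9 were called, 5 higher and 4 lower, but the called ones rested on 0.198 to 5.45 estimated fragments per group, so their FPKM says little. Of the 79 members listed at 0 in 1 group, 77 were small RNAs. Among long RNAs, Malat1 stood at 1265 and 1710.5 FPKM with overlapping intervals. Dancr, a host of small nucleolar RNAs, stood at 105 FPKM (94.4 to 117) and 384 FPKM (0 to 1346), a log2 difference of 1.85, but in estimated fragments, 29.5 and 36.8, the difference was 0.31.

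The direction of the P2 differences was set beside the change that control cords went through later, from P6 to P10, a change measured in libraries that take no part in the P2 comparison. Over the 7730 protein-coding members, Pearson's r between the differences was 0.73 and Spearman's rho 0.68, given as a description across genes, which are not independent and share the annotation, gene lengths and normalization. Without the members of the oligodendrocyte and astrocyte lists, 7626 genes gave 0.69 and 0.67. The median P2 difference was -0.35 in the 22 genes whose control level was lower by 1 or more (log2) at P10 than at P6, and -0.27 in the 247 genes between -1 and -0.5. It was 0.00 in the 5056 genes within 0.25 of no change, and 0.47 in the 439 genes between 0.5 and 1. In the 23 genes above 1.5 it was 2.45, but 12 of them were below 5 FPKM in control cords at P2 and so had to be higher in SMA cords to be members. The other 11 had a median of 3.10 and were all higher. With genes chosen instead by 5 FPKM or more in control cords at P10, whatever their P2 level, 28 of 7580 genes were above 1.5, all 28 were higher in SMA cords at P2 with a median of 2.23, and r was 0.75. Genes with a higher level at P10 than at P6 in control cords were thus mostly above control in SMA cords at P2, and genes with a lower level mostly a little below.

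**Figure D4:**
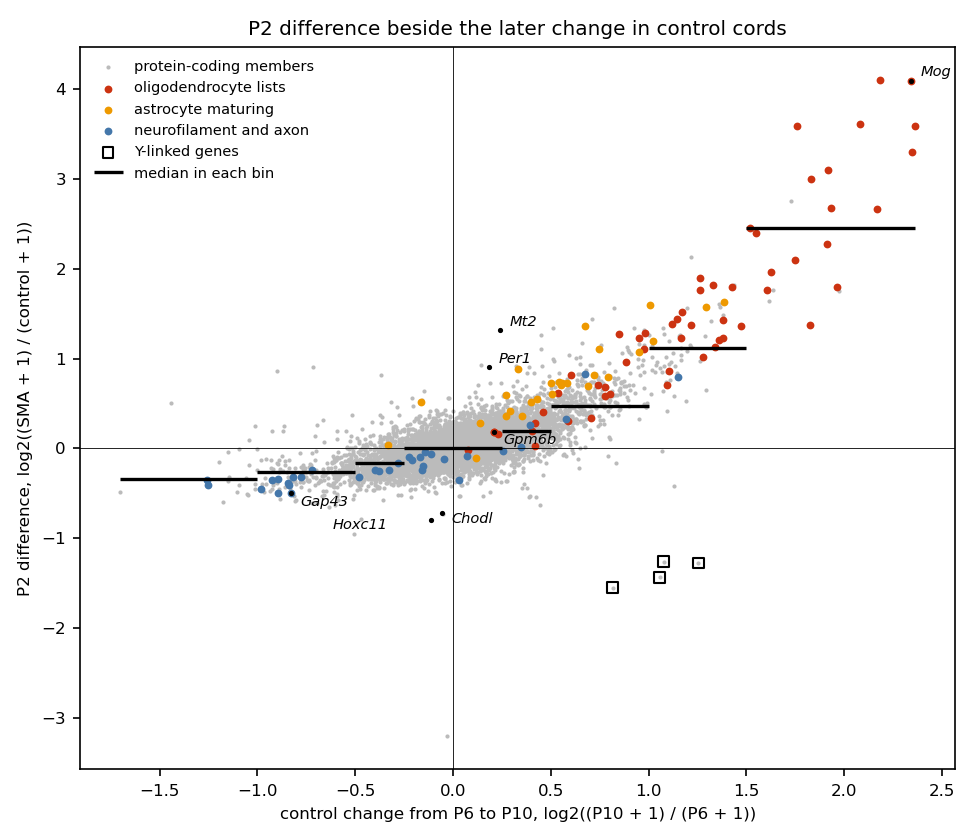
Log2 difference between SMA and control cords at P2 (vertical axis) against the log2 change of control cords from P6 to P10 (horizontal axis) for 7730 protein-coding members, with gene lists in colour and black bars for the median in each bin. Medians climb from -0.35 on the left to 2.45 on the right, and the 4 Y-linked genes, Mt2, Per1, Chodl and Hoxc11 lie off this course.

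The 95 protein-coding members at least 1 higher in SMA cords at P2 were picked for a high SMA value at P2, and 50 of them were members through the SMA group alone, so their levels beside the other ages are a description. Of the 95, 95 were also higher at P10 than at P6 in control cords, and 92 did so by at least 0.5. Among all 7730 protein-coding members, 5056 stayed within 0.25 of no change. In 94 the SMA value at P2 was above control at P6, and in 90 it was below control at P10. The median SMA value at P2 was 57.6% of control at P10 (quartiles 50.4% and 66.7%), where the control value at P2 was 19.9%. The called myelin genes were close to each other on this scale, as Mal stood at 52.0%, Cldn11 at 48.3%, Gsn at 49.0% and Mag at 46.1% of control at P10, with Ermn lowest at 38.2%. Mbp stood at 43.0%.

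For the same 95 genes, whose P2 difference is the one they were picked by, the median log2 difference was 1.34 at P2, then 0.16 (P6) and -0.60 (P10), while 95 of 95 were lower in the group labelled SMA at P10 than in control cords at P10. The control value at P10 is part of both this P10 difference and the control change from P6 to P10, so they are not independent. Mal stood at 28.5 FPKM in control and 35.4 FPKM in SMA cords at P6, and at 151 and 94.5 FPKM at P10. Its SMA level was thus lower at P6 than at P2, whereas the control level was higher at each later age. Ermn stood at 3.93 and 4.22 FPKM at P6 and at 21.2 and 13.0 FPKM at P10. The difference between ages was tested for every locus: the P2 log ratio minus that of P6 passed for 7 of 19044 loci (0.0368%), with Ermn and Mal as the protein-coding members. The P2 log ratio minus that of P10 passed for 12 of 19060 loci (0.063%), with Cldn11, Ermn, Fa2h, Gsn, Mal and Scn4b as the protein-coding members.

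Some genes departed from the change of control cords from P6 to P10. They were picked for large differences, none was called, and the P2 intervals of each overlapped between the groups. Mt2 differed by 1.32 at P2, with a change of 0.24 from P6 to P10 in control cords, and Per1, a clock gene, by 0.91 with 0.18, at 3.69 and 7.79 FPKM. The endothelin-converting enzyme Ece1 differed by 0.92 with 0.15, but its SMA interval ran from 0 to 119 FPKM. On the low side were Hoxc11 at -0.80 with -0.11, Ptgds at -0.73 with -0.05, Chodl at -0.72 with -0.06, and Hoxa10 at -0.53 with 0.03. In control cords, however, Hoxc11 stood at 5.73, 1.90 and 1.67 FPKM and Hoxa10 at 21.8, 8.92 and 9.17 FPKM at P2, P6 and P10. Their SMA values at P2, 2.86 and 14.8 FPKM, lay between those of control cords at P2 and P6. The Y-linked Ddx3y went opposite ways, at -1.28 and 1.25.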

How the data were processed

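RNA of whole spinal cord was sequenced in 18 libraries, 3 for each of 6 groups, from stranded total RNA libraries depleted of ribosomal RNA, per the labels' protocols. The submitters' processing notes name FastQC, Bowtie2 2.2.4, TopHat2 2.1.1, Picard, Cufflinks 2.2.1, Cuffdiff and build GRCm38, with no role or order. The authors deposited 1 FPKM value per gene and group with a lower and an upper bound, and estimated counts of fragments with a model variance, so the libraries of a group were already combined. The annotation, the strand setting and the scaling between libraries are not given in the sources used here. Estimated fragments per group ranged from 6881671 to 7386338 over the 6 groups.

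From these values a log2 difference was computed with a pseudocount of 1, which understates the change of low genes. The z test used the log ratio of FPKM, with its standard error as the gap between the value and its upper bound over 1.96, at loci with 1 FPKM or more in a group and above 0 in both. Calls needed an adjusted p below 0.05. The test was tested on simulated data. Gene types and positions came from GENCODE for 97.6% of the members. Computation used pandas 2.3.3, numpy 2.4.6 and scipy 1.17.1 under Python 3.11.15, with plots from matplotlib 3.10.9.

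The members and gene lists were chosen with earlier results of these data known. Named were called genes, the 12 greatest and 12 smallest differences, and in each list described its called members, those with intervals apart, the 2 greatest, 2 smallest and 2 most abundant. Not every gene under this rule is printed, and genes named beyond it, such as Scn1a, Cdkn1a and Fkbp5, were chosen after their values were seen. Alternatives changed the spread, the call rule, the minimum FPKM, the gene types tested, the pseudocount, the scaling and the deposited table. The test of the difference between ages and the correlation without glial lists were added after seeing the data, as was the choice of genes by their control level at P10. A few results of the gene lists are not reported here, though the list counts include their genes.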

Additional observations from a re-analysis of the deposited data

Results flagged for a closer look

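The log2 ratio of SMA to control cords differed between ages for 6 protein-coding members, by a z test of the difference with Benjamini-Hochberg adjustment. Against P6, the P2 log ratio was greater by 4.11 ± 0.94 (SE) for Ermn and by 3.49 ± 0.80 for Mal, both at an adjusted p of 0.0345. Against P10, where the Smn1 level goes against the label of the SMA group, it was greater by 4.91 ± 0.93 for Ermn (adjusted p of 0.000511), 4.48 ± 0.84 for Mal (0.000384) and 4.36 ± 0.92 for Gsn (0.00574). It was also greater by 3.64 ± 0.83 for Cldn11 (adjusted p of 0.0194), 3.94 ± 0.91 for Fa2h (0.0284) and 3.63 ± 0.81 for Scn4b (0.0175). The ages come from separate libraries, and whether their processing differed was not tested.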

How the results depend on the processing

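The tables hold 1 value per group, so leaving out each replicate in turn could not be run. No paired analysis was possible because the columns carry no replicate numbers. The z test on estimated counts called 20 loci, of which 0 were lower in SMA cords and 14 were protein-coding members, and it shared 12 loci with the FPKM test. Read as the interval of 1 library, the authors' bounds gave 123 calls, 113 higher and 10 lower, with 63 protein-coding members. Intervals apart counted 44 loci, 34 higher and 10 lower, with 13 protein-coding members. Without a minimum FPKM 5 protein-coding members were called. With protein-coding and long noncoding loci alone 6 loci were called, 6 higher and 0 lower, and 5 were protein-coding members. Fa2h, Mag and Tmem88b were the calls lost under both settings. A pseudocount of 5 left 94 members at 1 or more higher, 47 of them protein-coding, and 3 protein-coding members at 1 or more lower, and moved the late myelin median to 1.25. By estimated counts 14 members were at 1 or more lower. The cause of these changes was not tested. Of 67 lists with enough members, 14 had a median at least 0.25 from 0, and these kept their sign under every alternative for list medians. Signs changed in 12 lists, all with a median within 0.07 of 0. By estimated counts the log2 difference turned to -0.32 for Cacng4, to -0.22 for Pax8 and to 0.0005192 for Fmnl1. Scaling by the median of all members moves every difference by 0.02.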
